A study of Danio rerio with 12 samples.

Results

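The regenerating ventricle of nkx2.5-/- zebrafish (MT7) was compared with that of wild-type zebrafish (WT7) at 7 days post-amputation (dpa), by RNA-seq of the ventricular apex. The comparison took the 2 libraries titled injured mutant and the 2 titled injured wildtype, 4 of 12 libraries in the series, and all 19014 genes with enough reads to be tested out of 38049 counted. Each library was made from a pool of 6 apices of adult fish, so that the spread between fish within a pool is hidden. The study as a whole used females and males in equal number and of mixed age. The sex and age of the fish in each pool are not given. WT7 fish were non-transgenic siblings. MT7 fish were homozygous for nkx2.5 vu179 and carried Tg(hsp70l:nkx2.5-EGFP) fcu1, a heat shock-inducible source of Nkx2.5 that rescues the otherwise lethal embryonic defect when it is switched on once during heart tube formation. All groups received that embryonic heat shock, the wild-type fish included. Since MT7 differs from WT7 in the mutation and in the transgene, values of injured transgenic wild-type hearts (TG7, which carry the same transgene and no mutation) are given beside them, and uninjured hearts of the same genotypes (WT0, MT0) show which differences were present without injury. The hsp70l promoter is itself known to respond to amputation. In the paper, transgene transcripts peaked soon after resection and were back at the uninjured level well before 7 dpa. The part of transgene expression after injury in these values was not tested.

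Nkx2.5 is a homeodomain transcription factor that acts in cardiac progenitors and cardiomyocytes, and in zebrafish it helps to preserve the ventricular as opposed to the atrial identity of muscle cells. After resection of the apex, the zebrafish heart first forms a clot, then the epicardium and endocardium are activated, matrix is laid down, and cardiomyocytes near the wound loosen their sarcomeres and divide. The 7 dpa time point falls in this phase of matrix deposition and cardiomyocyte renewal.

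Total counts of the 12 libraries ranged from 14234818 to 24544150, and 3 counts in a library correspond on average to 0.139 CPM (counts scaled to a common library size) in WT7 and 0.122 CPM in MT7. All levels below are CPM scaled by TMM factors, a normalization that assumes most genes to be unchanged. The scaling mattered most in MT7, with factors of 1.3 and 1.15 against 1 and 1.05 in WT7, and the 10 most abundant genes took 9.85% and 12.1% of counts in MT7 against 16.4% and 15.3% in WT7. Of 9074 well-expressed genes, 1.08% differed more than 2-fold between the MT7 replicates and 0.683% between the WT7 replicates. Replicates of every group differed by more than counting noise, and all were kept as separate samples. Heart muscle was present in all pools: all 7 cardiomyocyte markers, which mark atrial as well as ventricular muscle, had reads in every injured library, and their summed level was 54706.8 and 50826.6 CPM in WT7 and 32234.2 and 37573.9 CPM in MT7.

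nkx2.5 itself was measured at 220 and 184 CPM in WT7, 166 and 186 CPM in TG7, and 205 and 311 CPM in MT7. The groups overlapped, and the difference of MT7 from WT7 did not pass the test (log2 fold change 0.35 ± 0.20 SE, FDR = 0.31). This level does not check the genotype, because transcripts of the vu179 allele and of the transgene's nkx2.5 sequence would both be counted under 1 symbol.

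Between MT7 and WT7, 1943 genes were differentially expressed (DEGs, absolute log2 fold change above 0.5 and FDR below 0.05 in edgeR's quasi-likelihood test), which is 10.2% of the genes tested. Of these, 874 (4.6%) were higher and 1069 (5.62%) were lower in MT7, while the median log2 fold change over all genes was 0.0053. The libraries of MT7 and WT7 did not overlap for 1939 of the 1943 DEGs, against 61.1% of all genes tested in either direction. The other 2 comparisons of injured hearts share these libraries and called fewer genes, with 528 DEGs (2.78%; 141 higher, 0.742%, and 387 lower, 2.04%) between MT7 and TG7 and 216 (1.14%) between TG7 and WT7. The number of DEGs depended on each library: it was 367 without WT7 replicate 1, 531 without WT7 replicate 2, 905 without MT7 replicate 1 and 1706 without MT7 replicate 2. Of the 117 DEGs named in this text, 29 stayed DEGs under each of 11 alternative settings (those are marked below as held throughout), and none of the 117 changed direction under any of them. With 2 pools per group, the FDR measures only the spread between pools of the same group. That spread was estimated over all groups of the series together, the uninjured ones included. When only the MT7 and WT7 libraries were fitted, 2244 genes were DEGs, and 84.3% of the 1943 were still called.

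**Figure D1:**
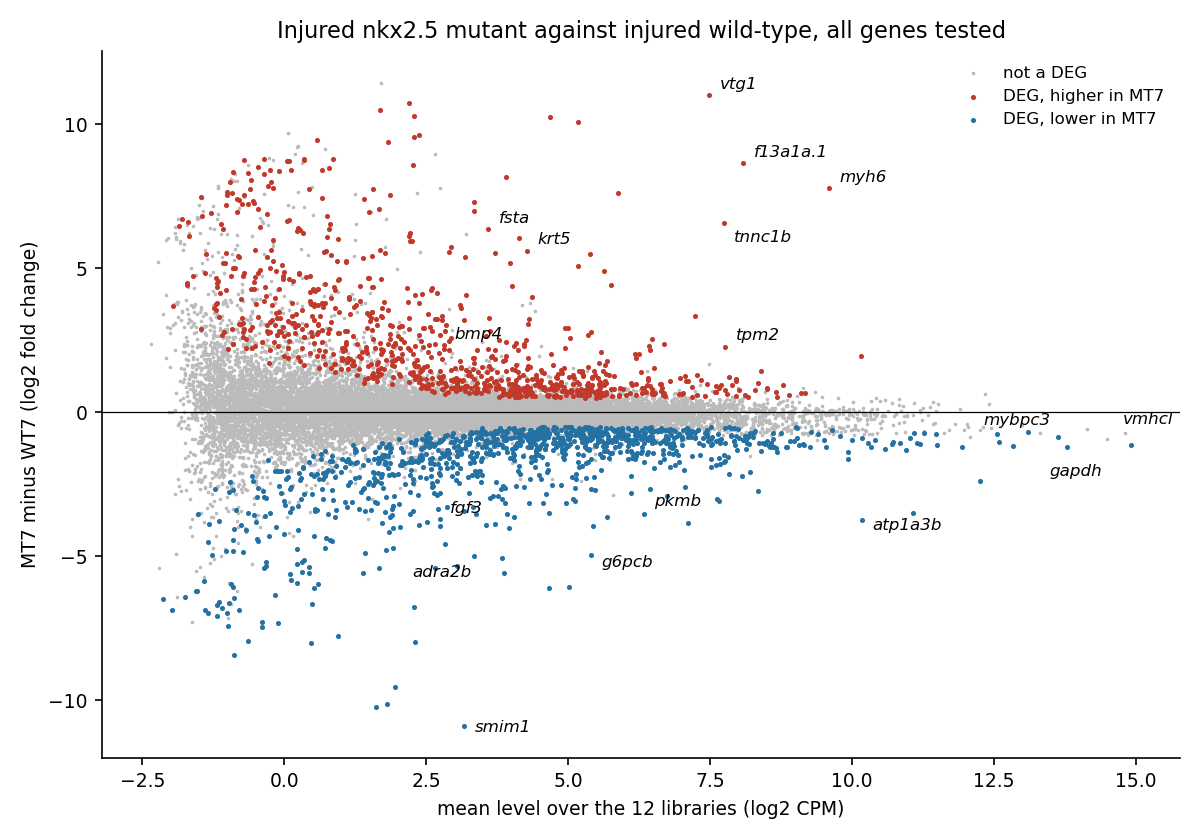
Each point is a gene, with its mean level over the 12 libraries (log2 CPM) on the x axis and the difference between MT7 and WT7 (log2 fold change) on the y axis. The 874 DEGs higher in MT7 are red, the 1069 lower ones are blue, and myh6, tnnc1b and f13a1a.1 stand out among the abundant genes that were higher.

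Relative to WT7, the injured mutant apex held less mRNA of many sarcomere genes, the ventricular myosins vmhcl and vmhc among them. It held far more of some atrial and alternative isoforms. Of these isoforms, myh6 and tnnc1b were also high in TG7, while tpm2 was not. Of 59 tested genes for the thin filament, titin and Z-disc, 18 were lower and 6 higher in MT7, which is 40.7% called against 10.2% of all genes, with a median log2 fold change of -0.51. Of 16 chamber myosins and natriuretic peptides, 4 were lower and 3 higher (43.8% called), with a median of -0.05. Fewer cardiomyocytes in the pool and less RNA of these genes per cardiomyocyte cannot be told apart in bulk tissue, and the 7 cardiomyocyte markers summed above are themselves members of these lists. Of those 7, nppa, a natriuretic peptide, had 3480 and 3440 CPM in WT7 and 7160 and 3700 CPM in MT7 (0.65, FDR = 0.14), and myh6 was higher as well, while the other 5 were below WT7 in both MT7 libraries. MT7 replicate 1 was the lower of the pair for most of the abundant sarcomere genes. Leaving out WT7 replicate 1, WT7 replicate 2, MT7 replicate 1 or MT7 replicate 2 left 5, 7, 6 and 17 lower thin filament and Z-disc genes, respectively.

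The ventricular myosin heavy chain vmhcl had 30400 and 28100 CPM in WT7, 26500 and 30400 CPM in TG7, and 9120 and 17400 CPM in MT7. Both mutant libraries were below all 4 control libraries, and vmhcl was lower in MT7 than in WT7 (log2 fold change -1.14 ± 0.30, FDR = 0.038). For vmhcl, the difference of MT7 from TG7 did not pass (-1.10, FDR = 0.089). Its paralog vmhc had 1230 and 1430 CPM in WT7, 817 and 1110 CPM in TG7, and 796 and 556 CPM in MT7, and was lower as well (-0.97 ± 0.25, FDR = 0.033). TG7 lay between the other groups for vmhc, and its difference from MT7 did not pass (-0.51, FDR = 0.33). mybpc3, the cardiac myosin-binding protein that sets the order of thick filaments, fell from 7450 and 7220 CPM to 2550 and 4030 CPM (-1.16 ± 0.23, FDR = 0.013). TG7 had 5750 and 6100 CPM of mybpc3, and the difference of MT7 from TG7 did not pass (-0.85, FDR = 0.092). The atrial and ventricular regulatory light chain myl7 had 21600 and 19400 CPM in WT7 and 8320 and 13500 CPM in MT7 without overlap, and missed the threshold in edgeR (-0.91 ± 0.26, FDR = 0.052). It passed in DESeq2 (FDR = 0.0031), in limma-voom (FDR = 0.032), without the filter on low counts (FDR = 0.049) and without MT7 replicate 2 (FDR = 0.022).

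Atrial myosin heavy chain, myh6, showed the opposite pattern. It had 2.72 and 14 CPM in WT7, 1040 and 998 CPM in TG7, and 2600 and 1130 CPM in MT7. Both transgenic groups were thus far above WT7, and the difference of MT7 from TG7 did not pass the test (0.87, FDR = 0.63). Against WT7, myh6 was higher in MT7 by 7.79 ± 1 on the log2 scale (FDR = 0.0017, held throughout). The uninjured wild-type libraries held 85.6 and 348 CPM, so that WT7 was the lowest of the groups shown. Whether the apex pools contained some atrial tissue was not tested.

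Troponin C, the calcium sensor of the thin filament, changed in composition. tnnc1a had 7500 and 6950 CPM in WT7, 3640 and 4280 CPM in TG7, and 1150 and 1630 CPM in MT7 (-2.37 ± 0.27, FDR = 0.00098, held throughout; this gene was chosen after its values were seen). tnnc1b had 2.86 and 7.11 CPM in WT7, 294 and 364 CPM in TG7, and 663 and 285 CPM in MT7 (6.56 ± 1.02, FDR = 0.0042). MT7 was below TG7 for tnnc1a (-1.51, FDR = 0.016), whereas for tnnc1b the 2 transgenic groups overlapped. Tropomyosin 2, tpm2, was raised in the mutant and not in the transgenic control: it had 70 and 80 CPM in WT7, 81.7 and 78 CPM in TG7, and 327 and 402 CPM in MT7 (2.28 ± 0.15, FDR = 8.8e-05, held throughout). The difference of MT7 from TG7 had a similar size (2.19, FDR = 0.00013). The abundant tropomyosin tpm4a was lower, with 8910 and 8620 CPM in WT7 against 4730 and 6110 CPM in MT7 (-0.69 ± 0.19, FDR = 0.047), a call that 7 of the 11 alternatives lost.

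Among Z-disc and related genes, synpo2la, which encodes an actin-associated protein of the Z-disc, had 23 and 26.4 CPM in WT7, 20.4 and 22.2 CPM in TG7, and 1.32 and 3.02 CPM in MT7 (-3.50 ± 0.41, FDR = 0.001, held throughout). The small heat shock protein gene cryabb, a chaperone of desmin and titin, had 6.16 and 5.21 CPM in WT7 and 0.414 and 0.281 CPM in MT7 (-4.01 ± 0.81, FDR = 0.013), and TG7 was intermediate at 0.74 and 2.09 CPM. klhl41b, a kelch protein needed for sarcomere assembly in skeletal muscle, fell from 17.8 and 10.8 CPM to 0.248 and 1.61 CPM (-3.93 ± 0.69, FDR = 0.0071). Desmin, desma, fell from 2160 and 2320 CPM to 1100 and 1300 CPM (-0.90 ± 0.18, FDR = 0.013). The sarcomeric actin actc1b rose from 1.89 and 2.16 CPM to 34.8 and 151 CPM (5.51 ± 1.12, FDR = 0.014), whereas the abundant cardiac actin actc1a had 9710 and 9400 CPM in WT7 and 4670 and 7090 CPM in MT7 without passing in edgeR (-0.70, FDR = 0.1), though it passed in DESeq2 (FDR = 0.035). Of these genes, the synpo2la difference was present against both control groups (-3.29 against TG7, FDR = 0.0036), while for klhl41b the difference of MT7 from TG7 did not pass (-0.69, FDR = 0.71).

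**Figure D2:**
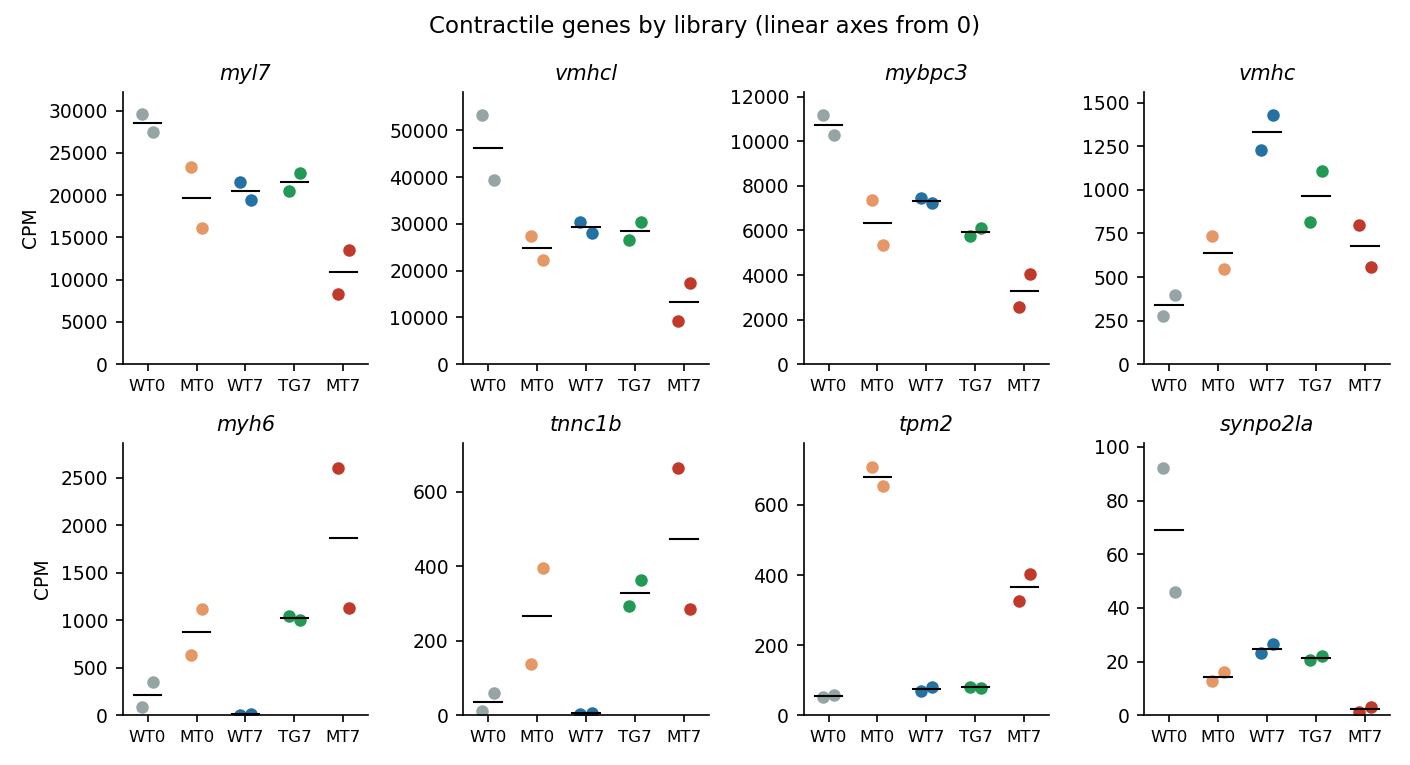
Points are single libraries and lines are means of 2 libraries, in CPM on linear axes that start at 0, for uninjured (WT0, MT0) and injured (WT7, TG7, MT7) groups. myl7, vmhcl and mybpc3 are lowest in MT7, myh6 and tnnc1b are high in both transgenic injured groups, and tpm2 is high in mutant hearts only among the groups drawn.

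Genes of excitation and calcium handling moved in both directions. Of 56 tested, 7 were lower and 5 higher in MT7, 21.4% against 10.2% of all genes, with a median log2 fold change of -0.13. The largest fall was in abcc8, the sulfonylurea receptor subunit of ATP-sensitive potassium channels, with 4.61 and 7.51 CPM in WT7, 5.81 and 7.28 CPM in TG7, and 0.787 and 0.322 CPM in MT7 (-3.44 ± 0.46, FDR = 0.002, held throughout). Its pore-forming partner kcnj11, named after its values were seen, fell from 5.34 and 9.37 CPM to 2.36 and 1.09 CPM (-2.09 ± 0.43, FDR = 0.014). For both channel genes MT7 was also below TG7. The sodium channel beta subunit scn1ba had 0.728 and 0.53 CPM in WT7, 4.95 and 5.11 CPM in TG7, and 9.32 and 8.52 CPM in MT7 (3.82 ± 0.29, FDR = 0.00013, held throughout). Alpha subunits of the sodium-potassium pump moved in both directions, and reads shared between these similar paralogs make single values less certain. atp1a3b, which is not in this list, fell from 1600 and 1260 CPM in WT7 to 82.8 and 131 CPM in MT7 (-3.74 ± 0.34, FDR = 0.00032, held throughout), with TG7 at 852 and 1110 CPM. atp1a2a rose from 1.6 and 1.59 CPM to 12.5 and 7.68 CPM (2.66 ± 0.50, FDR = 0.0097), and atp1a3a from 5.29 and 6.63 CPM to 30.8 and 22.2 CPM (2.15 ± 0.45, FDR = 0.016). TG7 had 2.79 and 2.49 CPM of atp1a2a and 26.5 and 12.3 CPM of atp1a3a, the latter overlapping MT7. The main calcium pump of the sarcoplasmic reticulum, atp2a2a, and its inhibitor pln did not pass the test, with log2 fold changes of -0.53 (FDR = 0.18) and -0.51 (FDR = 0.3). Without WT7 replicate 1, WT7 replicate 2, MT7 replicate 1 and MT7 replicate 2 in turn, the list held 3, 4, 6 and 5 lower genes and 1, 1, 3 and 3 higher genes.

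Cardiac transcription factors shifted by smaller amounts in the abundant members and by larger ones in rare transcripts. Of 37 tested, 6 were higher and 2 lower (21.6% called), with a median of 0.27. The list held 0, 0, 2 and 5 higher genes without WT7 replicate 1, WT7 replicate 2, MT7 replicate 1 and MT7 replicate 2, and its median turned to -0.04 without MT7 replicate 2. gata5, a zinc finger factor of the heart, rose from 213 and 201 CPM to 273 and 322 CPM (0.52 ± 0.13, FDR = 0.03), whereas hand2, a basic helix-loop-helix factor of the ventricle, had 222 and 210 CPM in WT7 and 176 and 214 CPM in MT7 (-0.15, FDR = 0.56). TG7 had 239 and 273 CPM of gata5, and its difference from MT7 did not pass (0.22, FDR = 0.45). isl1, a LIM homeodomain factor of the second heart field and of pacemaker cells, had no read in WT7 and 2.07 and 0.643 CPM in MT7, which is at least 9.76-fold higher when WT7 is set at 3 counts per library (FDR = 0.042). nkx2.7, a close relative of nkx2.5, had 2 reads in each WT7 library and 98 and 21 reads in MT7, a ratio of 26.2 with a 95% interval of 9.98 to 97.9 for counting error. foxh1, a cofactor of Nodal signalling, had 3 and 1 reads in WT7 and 133 and 12 in MT7 (ratio 32, interval 12.2 to 119). mef2a was lower in MT7, at 0.248 and 0 CPM against 1.26 and 1.63 CPM (-3.49 ± 0.96, FDR = 0.045). MT7 replicate 1 was the higher library for isl1, nkx2.7 and foxh1, and none of the 3 was a DEG without it, without either WT7 library or in limma-voom (FDR up to 0.23, 0.23 and 0.35 over the alternatives). That library also held germ cell transcripts, with the egg envelope gene zp2.1 at 15.6 CPM and the germ cell helicase ddx4 at 3.97 CPM, against 0 and 0.0402 CPM in MT7 replicate 2, and their part in these rises was not tested. The calls of gata5 and mef2a were lost without either WT7 library and without MT7 replicate 2, and that of mef2a also with the replicate block and with only the libraries compared.

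Lists of genes for mitochondrial energy production had negative medians in the mutant, and only the mitochondrial ribosome was called well above the 10.2% of all genes. All 69 mitochondrial ribosomal protein genes had a negative log2 fold change, 64 of them with MT7 libraries below both WT7 libraries, and 19 were lower DEGs with none higher (27.5% called, median -0.52). Over all 19014 genes tested, 9403 were negative, and 5960 had MT7 libraries below both WT7 libraries. Of 88 nuclear genes for respiratory complexes I to IV and their assembly, 86 were negative, and 9 were DEGs, all lower (10.2% called, the same share as of all genes, median -0.49). ATP synthase had 2 lower DEGs of 19 (10.5% called, median -0.54), and the tricarboxylic acid cycle with fatty acid oxidation 8 lower and 1 higher of 67 (13.4% called, median -0.53). The 88 cytosolic ribosomal protein genes, by contrast, had a median of 0 and no DEG in edgeR, and DESeq2 called 1 of them lower. The 4 mitochondrial lists also had negative medians between TG7 and WT7, from -0.19 to -0.26, with no DEG in edgeR. Between MT7 and TG7, they held no DEG in edgeR either, with medians from -0.23 to -0.30. These 2 comparisons called only 1.14% and 2.78% of all genes, respectively, so that few calls were to be had in either. Medians between MT0 and WT0, before injury, were negative too. They were -0.54 for the mitochondrial ribosome (47.8% called) and -0.41 for the tricarboxylic acid cycle (22.4%). Respiratory complexes had -0.30 (14.8%) and ATP synthase -0.31 (0%), with 25.3% of all genes called there. A test for a change of the genotype difference with injury called 1 gene of the tricarboxylic acid cycle list and none of the others. Cardiomyocytes are rich in mitochondria, and the summed cardiomyocyte markers fell with these lists; their part in the result was not tested.

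Among single genes of this group, mrpl28, a protein of the large mitochondrial ribosomal subunit, had 105 and 103 CPM in WT7, 66.7 and 79 CPM in TG7, and 47.9 and 53.6 CPM in MT7 (-1.04 ± 0.21, FDR = 0.012). mrpl12, mrps35 and mrpl52 fell by 0.90, 0.85 and 0.82 on the log2 scale, respectively. The complex I assembly factor ndufaf3 fell from 7.18 and 6.54 CPM to 1.66 and 2.81 CPM (-1.61 ± 0.33, FDR = 0.014), and the complex III core subunit uqcrc2b from 590 and 509 CPM to 246 and 347 CPM (-0.89 ± 0.20, FDR = 0.022). cox17, a copper chaperone for complex IV, and ndufaf6 fell by 0.84 and 0.93. The ATP synthase genes atp5c1 and atp5g1, for the gamma subunit and for a subunit of the membrane ring, fell by 0.83 and 0.75. etfb, which passes electrons from fatty acid oxidation to the respiratory chain, fell by 1.23, and the malate dehydrogenase mdh1b by 1.2. For mdh1b, TG7 was near MT7, at 224 and 276 CPM against 221 and 206 CPM (-0.23, FDR = 0.69). The higher gene of that list was dld (0.97 ± 0.24, FDR = 0.031), a symbol that in zebrafish denotes the Notch ligand deltaD and not a metabolic enzyme. None of the mitochondrial ribosome, respiratory or ATP synthase genes was a DEG without WT7 replicate 1, without WT7 replicate 2 or without MT7 replicate 1, whereas 8, 18 and 5 were DEGs, respectively, without MT7 replicate 2. The tricarboxylic acid cycle list had 0, 0, 0 and 9 lower genes in the same fits. All medians of the first 3 lists stayed negative in those fits, between -0.27 and -0.77.

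Glycolysis and glucose entry changed in composition. Of 41 tested genes, 9 were lower and 5 higher, 34.1% against 10.2% of all genes, with a median of -0.28. gapdh, the glyceraldehyde-3-phosphate dehydrogenase of the central pathway, had 18200 and 15400 CPM in WT7, 15600 and 18200 CPM in TG7, and 6880 and 7880 CPM in MT7 (-1.19 ± 0.21, FDR = 0.0074). pkmb, a pyruvate kinase, fell from 63.2 and 104 CPM to 8.28 and 6.03 CPM (-3.54 ± 0.61, FDR = 0.0066). Both were also lower in MT7 than in TG7, with FDRs of 0.017 and 0.015. Glucose phosphate isomerase gpib fell from 307 and 269 CPM to 61.2 and 70 CPM (-2.13 ± 0.32, FDR = 0.0033, held throughout), and the aldolase aldoaa by 1.02. The glucose transporter slc2a1a had 11.8 and 21.8 CPM in WT7, 26.5 and 18.3 CPM in TG7, and 1.12 and 1.61 CPM in MT7 (-3.62 ± 0.45, FDR = 0.0014, held throughout). Its relative slc2a3a rose from 1.89 and 0.486 CPM to 11.2 and 7.6 CPM (2.99 ± 0.61, FDR = 0.014). The counts of lower and higher genes were 3 and 1 without WT7 replicate 1, 5 and 0 without WT7 replicate 2, 4 and 3 without MT7 replicate 1, and 12 and 3 without MT7 replicate 2.

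Outside the lists above, the genes with the largest falls in MT7 or the smallest p-values among falls were a mixed group. Most of them were lower against TG7 as well. adra2b, an alpha-2 adrenergic receptor, had 11 and 10.1 CPM in WT7, 10.6 and 10.3 CPM in TG7, and 0.414 and 0.241 CPM in MT7 (-4.99 ± 0.34, FDR = 9.2e-05). g6pcb, a glucose-6-phosphatase subunit, had 65.9 and 62.1 CPM in WT7, 57.1 and 45.6 CPM in TG7, and 1.9 and 2.21 CPM in MT7 (-4.95 ± 0.29, FDR = 4.2e-05). The secreted growth factor fgf3 had 21 and 22.5 CPM in WT7, 14.5 and 14.5 CPM in TG7, and 1.04 and 1.93 CPM in MT7 (-3.87 ± 0.33, FDR = 0.00028). For these 3 genes the mutant libraries lay far below all 4 control libraries. The zinc finger gene znf326 had 53.2 and 57.5 CPM in WT7, 26.6 and 27.9 CPM in TG7, and 10.9 and 11.4 CPM in MT7 (-2.31 ± 0.13, FDR = 4.2e-05). cd248a, which encodes endosialin of pericytes and fibroblasts, fell from 322 and 290 CPM to 60.1 and 71.1 CPM (-2.22 ± 0.14, FDR = 6.4e-05). The riboflavin transporter slc52a3, the delta-catenin ctnnd2b, the palmitoyltransferase zdhhc2 and the retinol-binding protein rbp2a fell by 3.52, 3.53, 3.53 and 3.63. All 9 of these genes held throughout, and rbp2a alone among them did not pass the test between MT7 and TG7 (-1.15, FDR = 0.18).

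Of the genes with the largest rises or the smallest p-values among rises, fsta was raised in the mutant against both controls. It encodes follistatin, a secreted inhibitor of activin, and had 0.34 and 0.398 CPM in WT7, 0.513 and 0.327 CPM in TG7, and 33.4 and 27.9 CPM in MT7 (6.35 ± 0.83, FDR = 0.0018). f13a1a.1, for the A chain of coagulation factor XIII, had 0.922 and 0.53 CPM in WT7, 799 and 656 CPM in TG7, and 226 and 363 CPM in MT7 (8.66 ± 1.47, FDR = 0.0062), so that both transgenic groups were high. sat1a.1, a polyamine acetyltransferase, had 6.55 and 5.61 CPM in WT7, 11.2 and 14.1 CPM in TG7, and 49.5 and 53.2 CPM in MT7 (3.08 ± 0.17, FDR = 4.2e-05, held throughout). sphkap, an anchoring protein for protein kinase A, had 4.81 and 4.2 CPM in WT7 and between 23.6 and 26.1 CPM in the 4 transgenic libraries (2.42 ± 0.18 for MT7 against WT7, FDR = 0.00011, held throughout). The levels of sphkap in MT7 and TG7 overlapped (-0.05, FDR = 0.93).

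Of 125 growth factor and morphogen genes, 17 were higher and 3 lower in MT7 (16% called, median 0.31). The list did not include fgf3, which was lower, and fsta, which was higher, both given above. BMPs are secreted ligands of the TGF-beta family that pattern the heart and act in its regeneration, and noggins are their extracellular inhibitors. bmp4 had 2.38 and 2.96 CPM in WT7, 4.78 and 6.18 CPM in TG7, and 13.2 and 13.6 CPM in MT7 (2.33 ± 0.27, FDR = 0.00099, held throughout). The 3 groups did not overlap, and MT7 was above TG7 (1.29, FDR = 0.027). bmp5 had 2 reads in the WT7 libraries together and 108 and 64 in MT7, a ratio of 75.9 with a counting interval of 20.7 to 631. The inhibitor nog3 rose from 0.485 and 0.707 CPM to 6.13 and 6.35 CPM (3.37 ± 0.43, FDR = 0.0016, held throughout), with TG7 at 0.74 and 0.695 CPM. The Wnt-binding sfrp1b rose from 1.5 and 2.16 CPM to 14.5 and 20.1 CPM (3.23 ± 0.48, FDR = 0.0032), and MT7 was also above TG7 (2.11, FDR = 0.037). nrg1, the neuregulin ligand that drives cardiomyocyte division in zebrafish, rose from 0.728 and 0.53 CPM to 4.35 and 3.66 CPM (2.66 ± 0.47, FDR = 0.0071), with TG7 at 1.94 and 1.1 CPM. The heparin-binding factor mdka, abundant after injury, had 897 and 1060 CPM in WT7 and 1200 and 1110 CPM in MT7 and did not pass (0.25, FDR = 0.39). The list held 5, 6, 12 and 12 higher genes without WT7 replicate 1, WT7 replicate 2, MT7 replicate 1 and MT7 replicate 2, respectively.

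**Figure D3:**
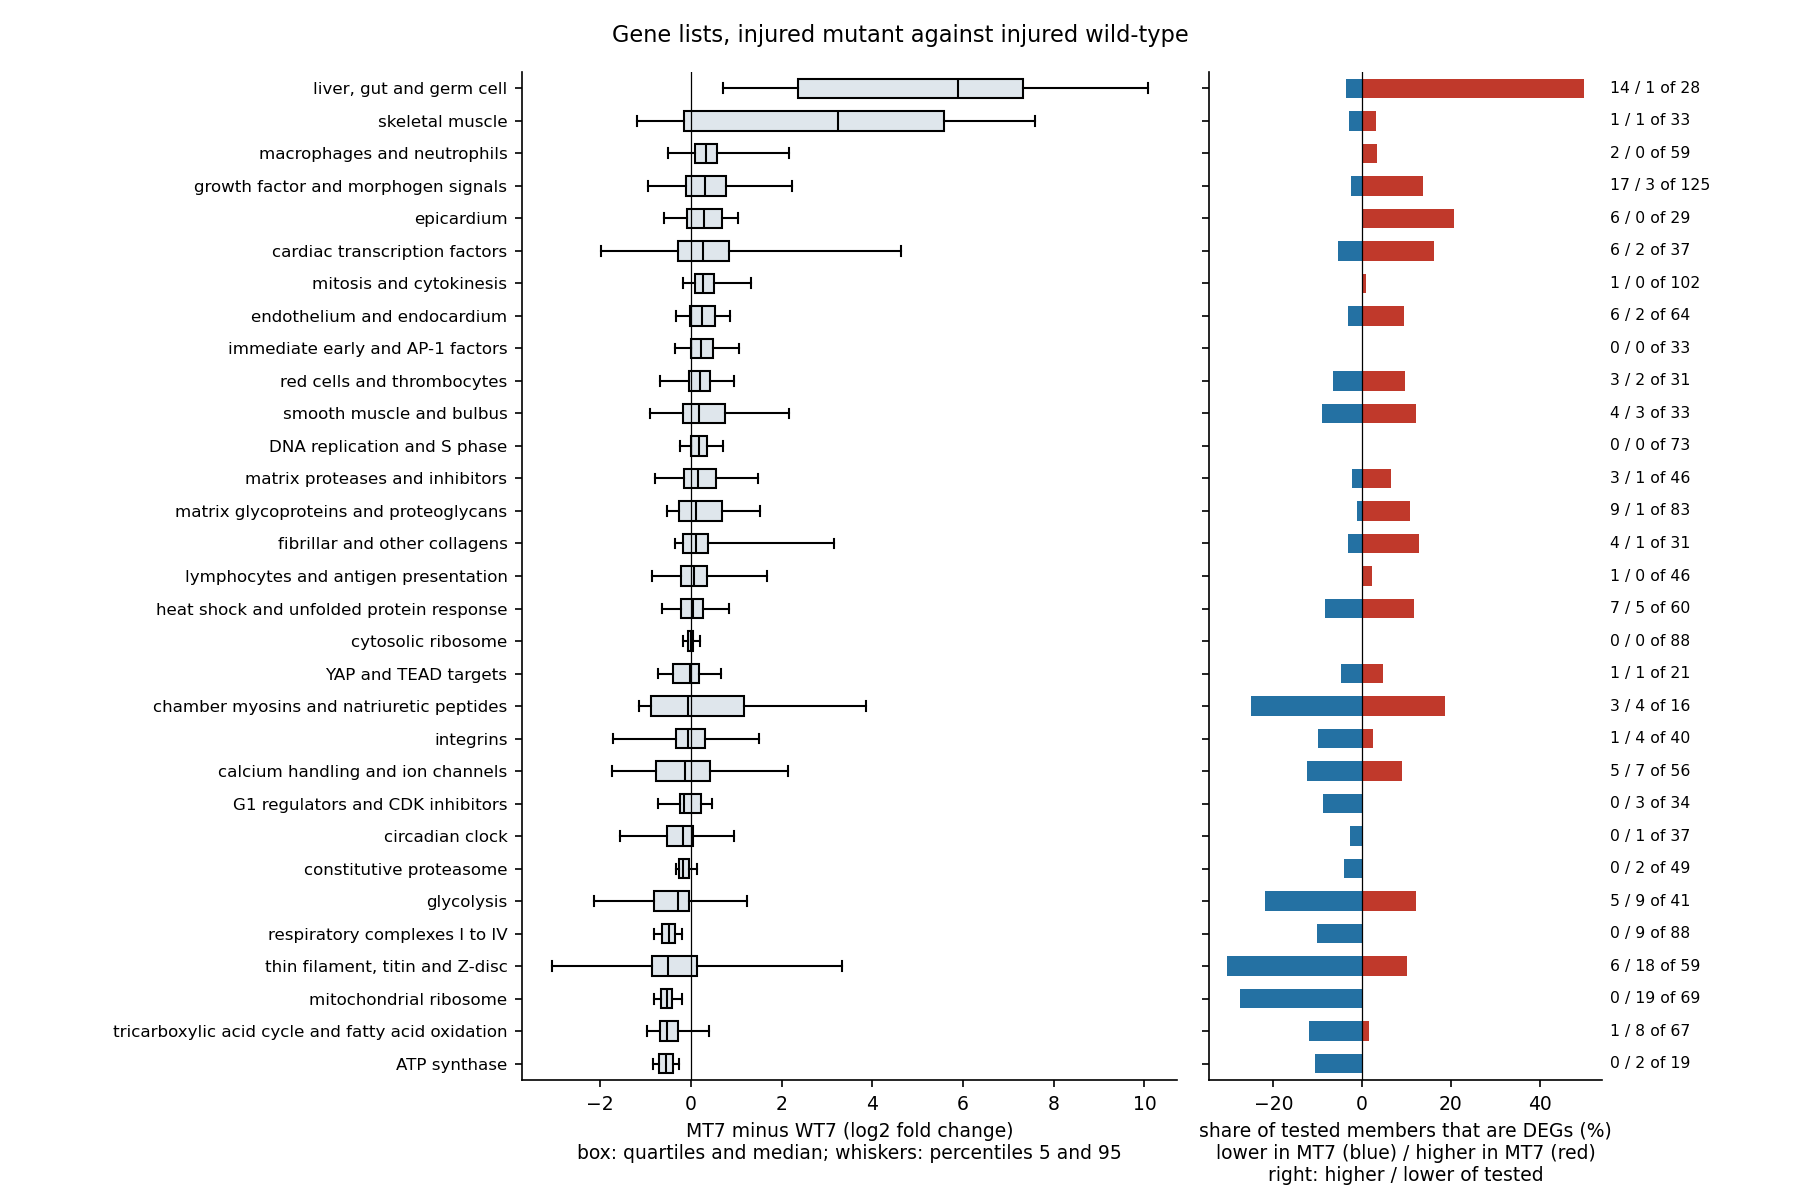
Left, the log2 fold change between MT7 and WT7 of the tested members of each gene list (box, quartiles and median, with whiskers at percentiles 5 and 95). Right, the share of tested members that were DEGs, lower in blue and higher in red, with counts at the margin, for example 0 higher and 19 lower of 69 for the mitochondrial ribosome.

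Genes of DNA replication and mitosis were rarely called between the genotypes at 7 dpa. Small rises were common, with 55 of 73 replication and 84 of 102 mitosis genes positive (9606 of 19014 over all genes). None of 73 replication and S phase genes was a DEG in edgeR or DESeq2, and 1 of 102 mitosis and cytokinesis genes was (0.98% called against 10.2% of all genes), with medians of 0.18 and 0.26. That gene, cenpf, a kinetochore protein, had 2.77 and 3.71 CPM in WT7, 8.43 and 8.22 CPM in TG7, and 10.4 and 6.47 CPM in MT7 (1.38 ± 0.37, FDR = 0.042). ect2, the exchange factor that starts the cytokinetic furrow, had 5.44 and 5.83 CPM in WT7 and 9.94 and 3.94 CPM in MT7, and the groups overlapped (0.30 ± 0.44, FDR = 0.74). pcna, the replication clamp, had 64.9 and 89.3 CPM in WT7 and 97 and 74.9 CPM in MT7 (0.16 ± 0.25, FDR = 0.76). MT7 replicate 1 was the higher of the MT7 libraries for all 3 genes, and without MT7 replicate 2 the mitosis list had 10 higher DEGs and the replication list 2, against 0 and 0 without MT7 replicate 1. Both list medians were -0.06 without MT7 replicate 1. MT7 replicate 1 also held germ cell transcripts, such as zp2.1 at 15.6 CPM, and their part in these rises was not tested. Among 34 regulators of G1 none was higher and 3 were lower (8.82% called, below the share of all genes). cdkn1c, the cyclin-dependent kinase inhibitor p57, had 9.13 and 8.92 CPM in WT7, 2.45 and 4.83 CPM in TG7, and 0.373 and 0.764 CPM in MT7 (-3.97 ± 0.45, FDR = 0.00098, held throughout). mycb fell from 87.4 and 124 CPM to 28.6 and 17.2 CPM (-2.21 ± 0.40, FDR = 0.0084), and the p53 target ccng1 from 2440 and 2300 CPM to 1300 and 1550 CPM (-0.73 ± 0.17, FDR = 0.022).

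Proteasome subunit genes were also rarely called. Of 49 genes, 2 were lower and none higher (4.08% called against 10.2% of all genes, median -0.18), and both were genes for the activator PA200. Small falls were common, with 39 of 49 negative (9403 of 19014 over all genes). In 32, both MT7 libraries were below both WT7 libraries (5960 of 19014 over all genes), and in 4 they were above. The median was also -0.18 between TG7 and WT7, and it was 0.05 between MT7 and TG7. psme4a fell from 110 and 86 CPM to 41.8 and 42.6 CPM (-1.21 ± 0.31, FDR = 0.035), and psme4b by 0.54 (FDR = 0.048). Neither of them was a DEG when any one of the MT7 or WT7 libraries was left out. psmb3, a subunit of the core particle, had 45.5 and 48.3 CPM in WT7 and 46.4 and 45.5 CPM in MT7 (-0.03 ± 0.10, FDR = 0.89). psmd7, a subunit of the regulatory lid, had 37.4 and 38.8 CPM in WT7 and 31.1 and 37 CPM in MT7 (-0.17 ± 0.12, FDR = 0.44), with MT7 libraries below those of WT7.

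Epicardial genes were higher in MT7 than in WT7 where they were called, and none was called higher in MT7 than in TG7. The epicardium is the mesothelial sheet around the heart that is activated by injury and supplies fibroblast-like cells and mural cells to the regenerate. Of 29 genes, 6 were higher in MT7 than in WT7 and none lower (20.7% called against 10.2% of all genes, median 0.28). Between MT7 and TG7, none was higher and 1 was lower (median -0.05). That comparison called few genes at all, 0.742% of all genes higher and 2.04% lower, so that the absence of higher calls among 29 says little. The median between TG7 and WT7 was 0.29. tcf21, a transcription factor of the epicardium, had 27.5 and 32.8 CPM in WT7, 56.7 and 49.7 CPM in TG7, and 51.5 and 46 CPM in MT7 (0.69 ± 0.14, FDR = 0.014). TG7 was thus as high as MT7 for tcf21 (-0.13 between them, FDR = 0.73). aldh1a2, which makes retinoic acid, rose from 167 and 206 CPM to 391 and 331 CPM (0.95 ± 0.26, FDR = 0.043), with TG7 at 226 and 233 CPM. wt1a and the caveolar gene cav1 rose by 1.03 and 0.90 on the log2 scale, with FDRs of 0.04 and 0.039. In TG7, wt1a had 12.4 and 12.8 CPM and cav1 82.2 and 79.8 CPM. The differences of MT7 from TG7 did not pass for aldh1a2, wt1a and cav1 (FDR = 0.23, 0.59 and 0.25). For aldh1a2 and cav1, both MT7 libraries were still above both TG7 libraries (log2 fold changes 0.65 and 0.57). Of the other epicardial markers, tbx18 had 46.5 and 56.4 CPM in WT7 and 75.2 and 70.6 CPM in MT7 (0.50, FDR = 0.17), and wt1b 31.6 and 39.7 CPM against 36.6 and 34 CPM (-0.01, FDR = 0.99). alcama, a cell adhesion molecule, had 267 and 282 CPM in WT7 and 329 and 422 CPM in MT7 and did not pass (0.45 ± 0.14, FDR = 0.063). Its libraries did not overlap between these groups, and its log2 fold change lay between 0.28 and 0.63 over the alternatives. The epicardial list had 0, 1, 1 and 3 higher DEGs without WT7 replicate 1, WT7 replicate 2, MT7 replicate 1 and MT7 replicate 2. Another of the 6, krt5, a keratin of stratified epithelia, had 2.67 and 0.707 CPM in WT7 and 158 and 6.03 CPM in MT7 (5.62 ± 1.52, FDR = 0.043), so that 1 MT7 library carried the difference. krt5 was not a DEG under 6 of the 11 alternatives, among them without MT7 replicate 1.

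Endothelial and endocardial genes were called 6 times higher and 2 times lower among 64 (12.5% called, median 0.25). vwf, the von Willebrand factor of endothelium and thrombocytes, had 222 and 209 CPM in WT7, 327 and 326 CPM in TG7, and 553 and 607 CPM in MT7 (1.43 ± 0.18, FDR = 0.0014, held throughout), in 3 groups that did not overlap. The Notch ligand jag1b and the Notch effector hey2 rose by 0.87 and 0.78 on the log2 scale (FDR = 0.031 and 0.039). prox1a, a homeobox factor of lymphatic endothelium that cardiomyocytes also express, fell from 166 and 172 CPM to 63.1 and 91.1 CPM (-1.13 ± 0.20, FDR = 0.0076). The summed level of 5 endothelial markers overlapped between the groups, at 461.7 and 429.8 CPM in WT7 and 399.6 and 529.6 CPM in MT7. Among 33 smooth muscle and bulbus genes, 4 were higher and 3 lower (21.2% called against 10.2% of all genes). smtnl1, a smoothelin-like regulator of contraction, rose from 26.6 and 36.4 CPM to 144 and 138 CPM (2.17 ± 0.23, FDR = 0.00058, held throughout), with TG7 at 67.7 and 73.3 CPM. Its relative smtnb fell by 1.52 (FDR = 0.0029, held throughout).

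Among scar and matrix genes, the abundant members did not pass the test at 7 dpa. Of 31 collagens, 4 were higher and 1 lower (16.1% called, median 0.10), and of 83 matrix glycoproteins and proteoglycans 9 were higher and 1 lower (12% called, median 0.10). The main fibrillar collagens did not pass the test. col1a1a had 1260 and 1410 CPM in WT7 and 1420 and 1460 CPM in MT7 (0.11 ± 0.14, FDR = 0.7), and col1a1b differed by 0.05 ± 0.14 (FDR = 0.87). Fibronectin fn1b had 3920 and 4340 CPM in WT7 and 5310 and 5350 CPM in MT7, and periostin postnb 1040 and 1310 CPM against 1030 and 949 CPM, and neither passed (FDR = 0.39 and 0.57). The genes that rose were less abundant members. The other periostin gene, postna, rose from 65.9 and 60.9 CPM to 172 and 194 CPM (1.53 ± 0.38, FDR = 0.031), with TG7 at 66.7 and 67.6 CPM. vcana, the versican of the embryonic heart matrix, rose from 1.89 and 1.1 CPM to 12.8 and 10.5 CPM (2.96 ± 0.77, FDR = 0.037), and thbs4b, a thrombospondin of tendon and muscle junctions, from 24.9 and 30.2 CPM to 101 and 58 CPM (1.53 ± 0.28, FDR = 0.009). col10a1b rose from 0.243 and 0.353 CPM to 7.25 and 5.47 CPM (4.38 ± 0.64, FDR = 0.0031) and col7a1, col15a1b and col8a1b by 3.15, 1.26 and 1.22. col10a1b and col8a1b were near the mutant level in TG7, at 3.87 and 4.01 CPM and at 40.5 and 39.6 CPM. thbs4b overlapped between MT7 and TG7, which had 57 and 70 CPM (0.33, FDR = 0.62). For vcana, TG7 had 4.56 and 2.86 CPM, below both MT7 libraries, and the difference did not pass (1.66, FDR = 0.28). Without WT7 replicate 1, WT7 replicate 2, MT7 replicate 1 and MT7 replicate 2 in turn, 0, 2, 1 and 2 collagens and 0, 0, 1 and 2 glycoproteins were higher.

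Among 46 matrix proteases and inhibitors, 3 were higher and 1 lower (8.7% called, below the 10.2% of all genes). ctsba, the lysosomal protease cathepsin B, had 38 and 42.1 CPM in WT7, 127 and 141 CPM in TG7, and 203 and 215 CPM in MT7 (2.38 ± 0.22, FDR = 0.00032, held throughout). The membrane-bound protease mmp16a fell from 15.2 and 16 CPM to 3.11 and 5.15 CPM (-1.92 ± 0.34, FDR = 0.0077). The collagenase mmp13a and the leukocyte protease adam8b rose by 2.45 and 0.64 on the log2 scale. The 4 genes thus moved in both directions, and mmp16a and adam8b were no longer DEGs without MT7 replicate 1 or without either WT7 library.

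Of 59 macrophage and neutrophil genes, 2 were higher and none lower (3.39% called, median 0.33), while 8 were higher when only the libraries compared were fitted and 5 in DESeq2. Of 46 lymphocyte and antigen presentation genes 1 was higher (2.17% called, median 0.07). cxcl8a, a chemokine for neutrophils, had 0.437 and 0.398 CPM in WT7, 6.38 and 3.19 CPM in TG7, and 10.6 and 10.5 CPM in MT7 (4.64 ± 0.79, FDR = 0.0062). The class I gene mhc1zba rose from 304 and 312 CPM to 484 and 508 CPM (0.69 ± 0.17, FDR = 0.029), and such genes vary between fish stocks. The summed level of 4 macrophage markers was 156.2 and 223.8 CPM in WT7 and 255.7 and 224.2 CPM in MT7, and that of 3 neutrophil markers 6.31 and 7.73 CPM against 15.8 and 29.6 CPM. Blood content varied between pools: the globin gene hbaa1 had 2340 and 2600 CPM in WT7, 5270 and 7050 CPM in TG7, and 3720 and 1960 CPM in MT7 (0.20, FDR = 0.77). Among 31 red cell and thrombocyte genes, 3 were higher and 2 lower (16.1% called against 10.2% of all genes). smim1, a blood group antigen of red cells, had 13.1 and 10.7 CPM in WT7, 12.2 and 4.38 CPM in TG7, and no read in either MT7 library, which is at least 97-fold lower with MT7 set at 3 counts per library (FDR = 0.0041). The embryonic globin hbz had 35 and 39 reads in WT7 and 2 and 3 in MT7, a ratio of 16.8 with a counting interval of 6.88 to 53.2. add2 and aqp1a.1, for proteins of the red cell membrane, rose by 1.11 and 0.95. TG7 had 30.8 and 43.8 CPM of add2 and 65.1 and 66.6 CPM of aqp1a.1. MT7 had 35.4 and 27.7 CPM and 57.9 and 37.1 CPM, respectively.

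Chaperone genes moved in both directions. Of 60 genes for heat shock and the unfolded protein response, 7 were higher and 5 lower (20% called, median 0.05). hspa5, the main chaperone of the endoplasmic reticulum, had 167 and 203 CPM in WT7, 148 and 160 CPM in TG7, and 336 and 328 CPM in MT7 (0.84 ± 0.17, FDR = 0.014). hsp90b1 rose from 180 and 203 CPM to 344 and 394 CPM (0.95 ± 0.15, FDR = 0.0048), and the disulfide isomerase pdia4 from 56.7 and 58.8 CPM to 125 and 111 CPM (1.03 ± 0.16, FDR = 0.0045). All 3 were higher in MT7 than in TG7 by a like amount (FDR = 0.0095, 0.0096 and 0.0067). ahsa1, which activates the cytosolic chaperone Hsp90, fell from 34.4 and 24 CPM to 3.6 and 9.73 CPM (-2.13 ± 0.51, FDR = 0.027). Higher genes of this list numbered 0, 3, 6 and 6 and lower genes 0, 0, 0 and 2 without WT7 replicate 1, WT7 replicate 2, MT7 replicate 1 and MT7 replicate 2.

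Transcripts of yolk and liver were among the largest rises in MT7, and they were uneven between its libraries. Vitellogenins are egg yolk precursors made mainly by the female liver. vtg1 had 0.291 and 0.663 CPM in WT7, 2.28 and 107 CPM in TG7, and 27.9 and 2000 CPM in MT7 (11.01 ± 2.61, FDR = 0.03). The other vitellogenins had the same order of the MT7 libraries: vtg5 had 4.64 and 405 CPM, vtg2 6.91 and 633 CPM, vtg6 2.98 and 194 CPM, and vtg7 3.64 and 296 CPM. The apolipoprotein genes apoa1b and apoa2, expressed in liver, had 1.86 and 80.2 CPM and 1.08 and 39 CPM in MT7 against at most 0.291 CPM in WT7, while TG7 reached 19.5 and 7.4 CPM. Of 28 liver, gut and germ cell genes, 14 were higher and 1 lower (53.6% called), with a median of 5.89 that dropped to 1.72 without MT7 replicate 2, when 3 were higher. None of the list was higher in limma-voom or without either WT7 library, and 20 were higher without MT7 replicate 1. MT7 replicate 2 also carried skeletal muscle transcripts, with mylpfa at 1.08 and 81.8 CPM in the MT7 libraries, 21.4 and 0.491 CPM in TG7, and 0.68 and 0.442 CPM in WT7. Of 33 skeletal muscle genes, 1 was higher and 1 lower (6.06% called against 10.2% of all genes). The median of this list, 3.24, turned to -0.23 without MT7 replicate 2 and was 4.18 without MT7 replicate 1. The higher one was atp2a1, the fast-twitch calcium pump, at 41.4 and 13.4 CPM in MT7, and the lower one ckma, a creatine kinase abundant in every library. MT7 replicate 1, in turn, held germ cell transcripts, with zp2.1, an egg envelope gene, at 15.6 CPM against 0 in MT7 replicate 2 and in both WT7 libraries. The myosin light chain gene myl10 had 2.15 and 7.48 CPM in MT7 against 0.291 and 0.353 CPM in WT7 (3.87 ± 0.90, FDR = 0.024). Without MT7 replicate 2, which leaves out most of the yolk, liver and skeletal transcripts, 780 genes were lower and 926 higher than in WT7, against 370 and 535 without MT7 replicate 1.

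In the fit of all 12 libraries, most DEGs at 7 dpa were also DEGs in the same direction in uninjured hearts. The uninjured and injured hearts share no library. Uninjured mutants differed from uninjured wild-types in 4803 DEGs (25.3% of those tested). Of the 1943 DEGs between MT7 and WT7, 1179 were DEGs in the same direction between MT0 and WT0, which is 60.7% of the injured list and 24.5% of the uninjured list. 26 DEGs of both lists had opposite directions. The shared part was smaller when each comparison was fitted on its own libraries only. There, 2244 injured and 1233 uninjured DEGs were found, and 592 were shared in the same direction. In all, 1769 of the 1943 (91%) had the same sign in uninjured hearts, against 68.4% of all genes tested. The number of shared DEGs fell to 298 without WT7 replicate 1, 425 without WT7 replicate 2 and 615 without MT7 replicate 1. tpm2, g6pcb, fgf3, atp1a3b and fsta belonged to the shared set, with log2 fold changes between MT0 and WT0 of 3.64, -4.23, -5, -3.23 and 7.47. So did f13a1a.1 and sphkap, at 10.6 and 2.71, which were also high in uninjured transgenic wild-type hearts (TG0). TG0 had 254 and 162 CPM of f13a1a.1 and 14.1 and 17.9 CPM of sphkap. MT0, like MT7, differs from the wild-type in the mutation and in the transgene, and the part of each in the shared set was not tested.

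The difference between genotypes itself differed between injured and uninjured hearts for 375 genes by a test of the interaction (1.97% of those tested), 88 in the positive and 287 in the negative direction, that is, with a less positive or more negative mutant difference after injury. The 2 uninjured wild-type libraries were the least alike of any pair, with 4.68% of well-expressed genes more than 2-fold apart, and the count was 158 without WT0 replicate 1, 1769 without WT0 replicate 2, 191 without MT0 replicate 2, 70 without WT7 replicate 1, 32 without WT7 replicate 2 and 126 without MT7 replicate 1. Matrix genes were frequent among the negative ones, with 18 of 83 glycoproteins and proteoglycans, 8 of 31 collagens and 9 of 46 proteases and inhibitors, and none of these was positive. These are 21.7%, 25.8% and 19.6% of the lists, against 1.51% of all genes. col1a1a had 133 and 150 CPM in WT0, 549 and 679 CPM in MT0, 1260 and 1410 CPM in WT7, and 1420 and 1460 CPM in MT7. The excess of MT0 over WT0, 2.11 on the log2 scale, was thus 0.11 between MT7 and WT7 (interaction -2.01 ± 0.20, FDR = 0.0025). postnb had 8.95 and 12.8 CPM in WT0, 98.2 and 159 CPM in MT0, and MT7 libraries at or below those of WT7 after injury (interaction -3.81 ± 0.34, FDR = 0.0021). fn1b and mdka followed, with an excess of 2.43 and 2.21 before injury and of 0.37 and 0.25 after it. Uninjured transgenic wild-type hearts (TG0), which carry no mutation, lay between WT0 and MT0 for col1a1a, postnb and fn1b. They had 298 and 285 CPM, 61 and 61.6 CPM, and 576 and 607 CPM, respectively. The part of the transgenic line in these interactions was not tested. The mitosis list had 71 higher DEGs of 102 in MT0 against WT0 (69.6% called) and a median of 1.90, compared with 1 DEG (0.98% called) and a median of 0.26 at 7 dpa. Of its genes, 4 passed the interaction test, all negative (3.92%, against 1.97% of all genes). Immediate early and AP-1 genes had 21 higher and 1 lower of 33 between MT0 and WT0 (66.7% called), and none in edgeR between MT7 and WT7 (DESeq2 called 2). Over all genes, the share called was also larger before injury, 25.3% against 10.2% at 7 dpa. jun had 57.3 and 64.4 CPM in WT0, 176 and 258 CPM in MT0, 80.7 and 103 CPM in WT7, and 181 and 131 CPM in MT7, and its interaction did not pass (-1.08, FDR = 0.14).

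**Figure D4:**
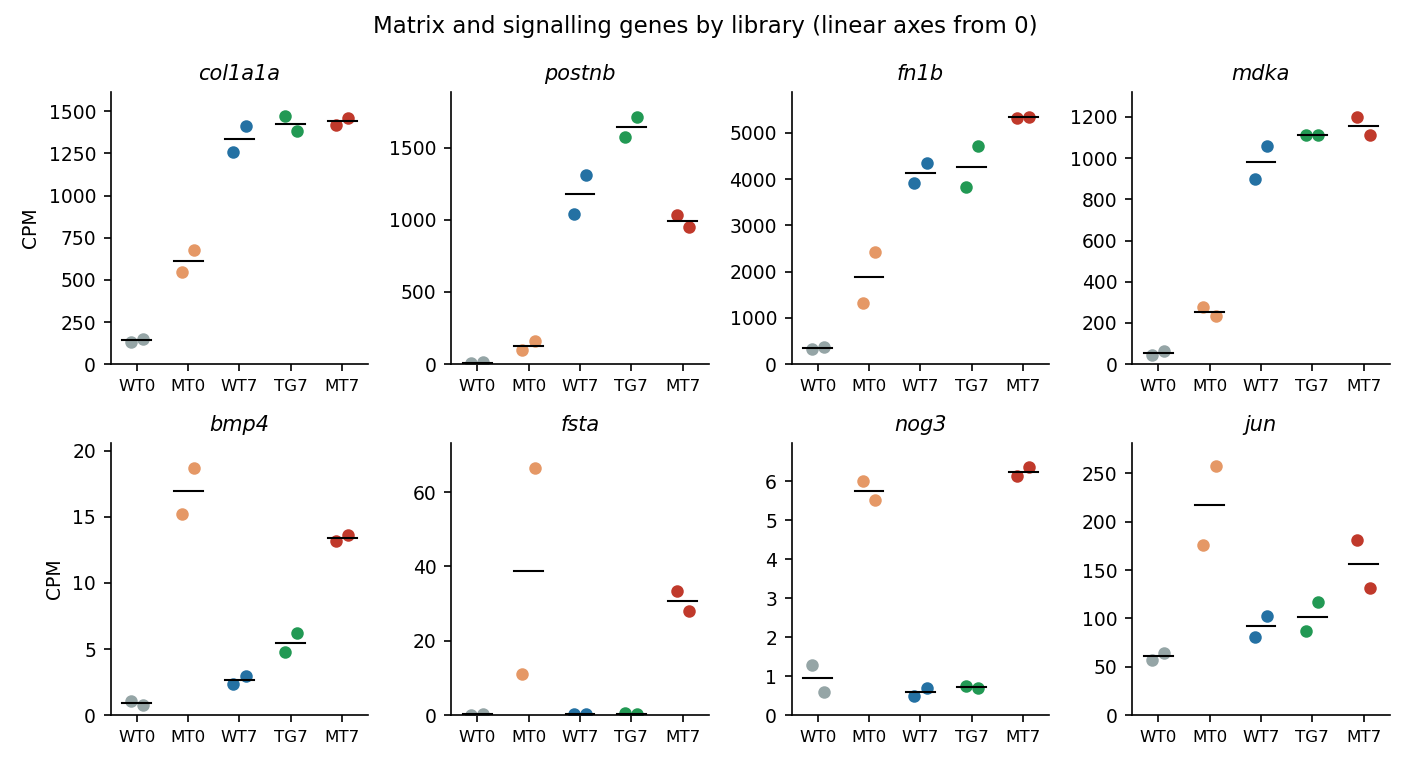
Points are single libraries and lines are means of 2 libraries, in CPM on linear axes that start at 0. For col1a1a, postnb, fn1b and mdka the mutant is above the wild-type before injury and near it at 7 dpa, whereas bmp4, fsta and nog3 are high in the mutant at both times.

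Of 16 chamber myosins and natriuretic peptides, 2 passed the interaction test, vmhc and myh6 (12.5%, against 1.97% of all genes). The abundant vmhcl did not (interaction -0.24, FDR = 0.8), as it was lower in the mutant before injury too (-0.90, FDR = 0.048). vmhc was higher in MT0 than in WT0 (734 and 544 CPM against 279 and 397 CPM, log2 fold change 0.92, FDR = 0.022) and lower in MT7 than in WT7, with an interaction of -1.89 ± 0.35 (FDR = 0.029). From uninjured to injured libraries, vmhc went from 279 and 397 CPM to 1230 and 1430 CPM in the wild-type, and from 734 and 544 CPM to 796 and 556 CPM in the mutant. The mutant libraries of both states overlapped, while those of the wild-type did not. For myh6 the mutant excess was 2.02 before injury, where it did not pass (FDR = 0.075), and 7.79 after injury (interaction 5.77 ± 1.14, FDR = 0.037). Here WT7, at 2.72 and 14 CPM, was below WT0 and the mutant libraries stayed high. TG0, at 438 and 864 CPM, was above WT0 as well and overlapped MT0, at 632 and 1120 CPM.

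**Figure D5:**
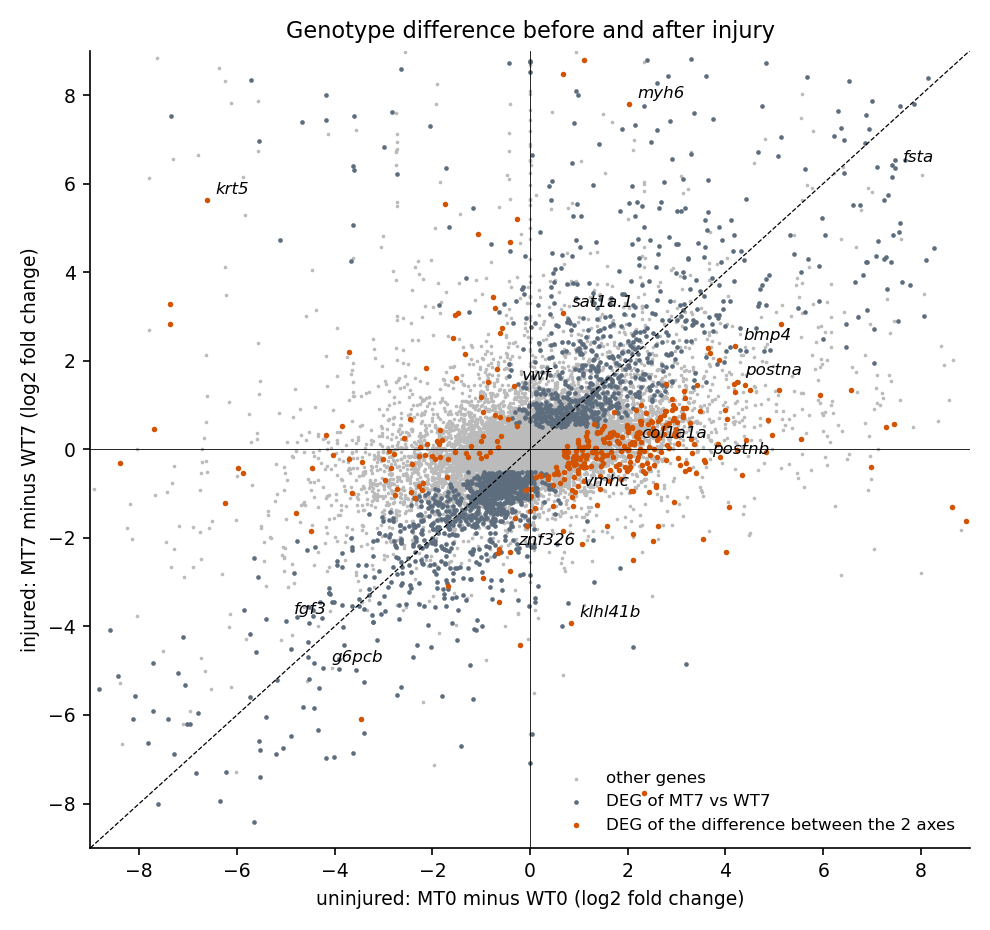
Each point is a gene, with the mutant difference in uninjured hearts on the x axis and in injured hearts on the y axis (log2 fold change), and 34 genes lie beyond the axis limits of 9. DEGs of MT7 against WT7 are dark, the 375 genes whose differences themselves differed are orange, and most of the latter lie to the right of 0 on the x axis and near 0 on the y axis.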

How the data were processed

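RNA-seq was performed on 12 libraries (6 groups of 2). By the study's methods, the authors aligned reads with STAR to GRCz10, counted them with featureCounts, and deposited whole-number counts per gene symbol for 38049 genes, without normalization. No column of another sample was present. Strand use in counting is not given in the sources used here, and reads of near-identical paralogs are uncertain.

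From the deposited counts, edgeR (version 4.0.16, R 4.3.3) gave TMM-scaled CPM and quasi-likelihood tests. Genes were filtered by group (minimum count 10, minimum total 15), and all 12 libraries entered 1 fit in which every group had its own mean. P-values were adjusted by Benjamini-Hochberg over 19014 genes (FDR, two-sided). A gene was a DEG at FDR under 0.05 when its log2 fold change also exceeded 0.5 in size. SE is the absolute log2 fold change over the square root of F. Counting intervals are exact (Clopper-Pearson, 95%) and, like the floor of 3 counts, cover counting error only. The model was tested on simulated counts.

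Alternatives were DESeq2 (1.42.0), limma-voom (limma 3.58.1), RLE size factors, no filter, no fold threshold, a replicate block, only the libraries compared, and each replicate left out in turn, where a lone library is assumed to vary like the other groups. A crossed block was added after the data were seen. Gene lists were written by symbol, and 88 of their names were matched through synonyms of RefSeq. The members, lists and tests were chosen with earlier results of these data known.

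Genes named are nkx2.5, myh6, vmhc, ect2, psmb3, psmd7, alcama, tcf21 and bmp4. To these were added the 12 largest changes and the 3 smallest p-values in each direction, among DEGs whose mean log2 CPM was 1 or more, with groups that do not overlap and a symbol that is not provisional. In each list, up to 4 DEGs with the largest change and 2 members with the highest level were added, and not all of these are printed. tbx18 and wt1b are cell type markers, as are mylpfa, zp2.1, ddx4 and nppa. kcnj11 and tnnc1a were chosen after their values were seen.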

Additional observations from a re-analysis of the deposited data

Results flagged for a closer look

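The genotype difference differed between injured and uninjured hearts for 20 named genes, by edgeR's test of the interaction with Benjamini-Hochberg adjustment over 19014 genes. Values are the mutant difference at 7 dpa minus that before injury, on the log2 scale. For matrix genes these were -2.01 for col1a1a, -2.39 for col1a1b, -2.71 for postna, -3.81 for postnb, -2.06 for fn1b and -4.02 for mmp16a. The mutant was above the wild-type in uninjured hearts for all 6 of them, and mmp16a was the only DEG of them that was lower in the mutant after injury (postnb was at -0.25 and did not pass).

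Among muscle and channel genes, the value was 5.77 for myh6, -1.89 for vmhc, -1.35 for tpm2, -4.77 for klhl41b, -1.51 for smtnl1 and -2.80 for abcc8. tpm2 and smtnl1 were DEGs in the mutant direction in both states, with a smaller excess after injury (2.28 and 2.17 against 3.64 and 3.68).

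For signals and markers of other cells it was -1.86 for bmp4, -1.96 for mdka, -2.02 for wt1b, 1.76 for vwf and 12.22 for krt5. The krt5 value joins a difference of 5.62 in injured hearts, carried by MT7 replicate 1, with one of -6.61 in uninjured hearts, where WT0 had 5.09 and 50 CPM and MT0 0.283 and 0.269 CPM.

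The remaining values were 2.40 for sat1a.1, -1.89 for znf326 and -3.19 for gpib. The sat1a.1 and znf326 differences were present in uninjured hearts with smaller sizes (0.68 and -0.42), whereas gpib was higher in MT0 than in WT0 (1.06).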

How the results depend on the processing

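With 2 pools per group, counts of DEGs depended on each library, and genes near 3 counts cannot be ranked. Leaving out replicates gave 367 to 1706 DEGs for MT7 against WT7 (1943 with all libraries), 134 to 926 higher (874), 233 to 780 lower (1069), 112 to 667 for MT7 against TG7 (528), 3 to 46 for TG7 against WT7 (216), 2704 to 5475 for MT0 against WT0 (4803), 32 to 1769 for the interaction (375), and 298 to 1077 DEGs shared with MT0 against WT0 (1179).

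DESeq2 called 1119 DEGs for MT7 against TG7, 661 for TG7 against WT7 and 1192 for the interaction, and limma-voom 185 for the interaction. With only the libraries compared, 1134 DEGs were found for TG7 against WT7, 1233 for MT0 against WT0, 81 for the interaction and 592 shared. RLE size factors moved the median over all genes to 0.036 and kept 95.3% of the DEGs of MT7 against WT7. DESeq2 called 50.7% of its 2544 DEGs higher in MT7, against 45% in edgeR. Counts of lower genes for respiratory complexes and ATP synthase were 20 and 6 in DESeq2 against 9 and 2 in edgeR, and for the tricarboxylic acid cycle 15 against 8. Of 117 named DEGs, limma-voom kept 97 and the replicate block 95.

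Same-numbered MT7 and WT7 libraries did not deviate together (correlation -0.25 over 9074 genes). The labels do not say whether the numbers pair the samples, and this correlation alone cannot settle it. With the replicate block, 1626 genes were DEGs between MT7 and WT7 (723 higher, 903 lower), 423 between MT7 and TG7, 161 between TG7 and WT7, 4328 between MT0 and WT0, 258 in the interaction and 1025 shared. With the crossed pairing, added after seeing the data, 1933 genes were DEGs between MT7 and WT7.

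Log2 fold changes of 6 named genes that did not pass changed sign. Leaving out replicates gave -0.50 to 0.84 for ect2, -0.27 to 0 for hand2, -0.32 to 0.61 for hbaa1, -0.04 to 0.40 for pcna (-0.03 without MT7 replicate 1), -0.06 to 0.01 for psmb3 (0 without MT7 replicate 2) and -0.15 to 0.16 for wt1b (0.06 without MT7 replicate 2). psmb3 was 0 in DESeq2 and with RLE, and wt1b was 0.01 with the replicate block and 0.02 in DESeq2, with RLE and with only the libraries compared.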

Other observations

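Integrins and linked adhesion genes were called at about the share of all genes. Of 40, 4 were lower and 1 higher (12.5% called against 10.2% of all genes), with a median log2 fold change of -0.06 and 18 positive against 22 negative members. itga10, a collagen-binding integrin, had 16.5 and 10.2 CPM in WT7, 19.5 and 15.2 CPM in TG7, and 0.538 and 2.17 CPM in MT7 (log2 fold change -3.29 ± 0.49, FDR = 0.0032 in edgeR). tln2a, a talin that links integrins to actin in striated muscle, had 120 and 115 CPM in WT7, 65.3 and 59.8 CPM in TG7, and 28.9 and 42.5 CPM in MT7 (-1.72 ± 0.23, FDR = 0.0021). itga11b and itga7, the latter a laminin receptor of muscle, fell by 3.35 and 0.96. itga10 and tln2a stayed DEGs under all 11 alternatives, whereas itga11b and itga7 were no longer DEGs when any one of the 4 libraries was left out.

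Clock genes were called less often than the 10.2% of all genes, and targets of YAP at about that share. Of 37 clock genes, 1 was lower (2.7% called), tefb, a PAR-domain transcription factor, at 12.6 and 12.4 CPM in WT7 and 3.27 and 3.98 CPM in MT7 (-1.79 ± 0.40, FDR = 0.022). Of 21 YAP and TEAD targets 9.52% were called: f3b, for tissue factor, was higher (0.66) and amotl2b, an angiomotin, was lower (-0.72, with TG7 also low at 23.4 and 26.7 CPM against 44.2 and 42.2 CPM in WT7). These 3 calls were lost without WT7 replicate 1 and without WT7 replicate 2.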
